A study of Mus musculus with 17 samples.

Results

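The 97 genes described here are the nuclear genes for the respiratory chain and ATP synthase in a table of 35285 genes measured by RNA sequencing in mouse cochlea. They were taken by name, as protein-coding genes whose symbols begin with Ndufa, Ndufb, Ndufc, Ndufs, Ndufv, Sdha to Sdhd, Uqcr, Cox4 to Cox8 or Atp5. By role they comprised 7 core and 29 accessory subunits of complex I, 4 subunits of complex II, 8 of complex III, 19 of complex IV and 15 of ATP synthase. The prefixes also took in 8 assembly factors of complex I, 4 of complex II, the supercomplex factor Cox7a2l, and Atp5s and Atp5sl, so 15 of the 97 are not subunits. The RNA came from cochleae of male wild-type C57BL/6J mice aged 8 weeks, a strain known for early age-related hearing loss. By the study's methods the 17 libraries came from 17 mice. The control group (n = 3) received saline and no noise. The NE group (n = 7) was exposed to noise of 8 to 16 kHz at 100 dB for 2 h, and the brimonidine group (n = 7) had the same noise plus 3 intraperitoneal injections of brimonidine, an α2-adrenergic agonist, at 1 mg/kg on the day before, the day of and the day after exposure. Tissue was taken 2 days after exposure, and no brimonidine group without noise was sequenced. Values are FPKM, the fragments counted on a gene per kilobase of its exons, scaled to the depth of the library.

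The respiratory chain passes electrons from NADH, at complex I, or from succinate, at complex II, through ubiquinone to complex III and then through cytochrome c to complex IV, where oxygen is reduced. Complexes I, III and IV pump protons across the inner mitochondrial membrane, and ATP synthase uses the return flow to make ATP. Nuclear genes encode all of complex II and most subunits of the other complexes, while mitochondrial DNA encodes the remaining subunits, and the cochlea, with its ion-transporting stria vascularis and its sensory and neuronal cells, is a tissue with a high demand for ATP.

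Promoters of this gene class are known for sites of nuclear respiratory factor 1 (NRF1), ETS factors such as GABPA, YY1 and CREB. RefSeq windows of 300 bases on GRCm38.p6, 250 before and 50 after the start, matched 78 of the 97 genes by symbol. The letters GCGCATGCG (NRF1) lay on either strand in the windows of 10 of the 78 genes (12.8%), against 1.95% of 27025 symbols. The corresponding shares were 6.41% and 4.31% for CCGGAAGT (ETS), 10.3% and 1.64% for AAGATGGCG (YY1), and 5.13% and 2.03% for TGACGTCA (CREB). At least 1 of the 4 motifs was found in 25 of the 78 genes (32.1%) and in 9.18% of all symbols. The NRF1 letters are nearly palindromic, so a match usually reads on both strands and was counted once. A match is a description of the letters and not a measured site. The 150 bases before the start follow for the 4 genes called between the NE and control groups, for Uqcr11, whose NE values all lay below the control values, and for Atp5g2, whose share among its isoforms is given further on. Capitals mark CREB letters in Ndufb2, NRF1 letters in Ndufaf4 and Atp5g2, and ETS letters in Uqcr11. Ndufaf5 and Ndufc2 held none of the 4 motifs in this stretch, and Ndufaf5 held NRF1 letters beginning 16 bases after the start. Uqcr11 also held NRF1 letters across the start, from 5 bases before it to position 3, which the stretch cuts off. The stretches are, in order, chr6:39592415-39592564 (plus strand), chr4:24897933-24898082 (plus), chr2:140170496-140170645 (plus), chr7:97399853-97400002 (plus), chr10:80406822-80406971 (minus) and chr15:102671048-102671197 (minus).
Ndufb2: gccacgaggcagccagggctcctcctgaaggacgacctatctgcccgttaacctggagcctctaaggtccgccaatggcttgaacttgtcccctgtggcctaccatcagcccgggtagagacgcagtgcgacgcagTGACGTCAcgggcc
Ndufaf4: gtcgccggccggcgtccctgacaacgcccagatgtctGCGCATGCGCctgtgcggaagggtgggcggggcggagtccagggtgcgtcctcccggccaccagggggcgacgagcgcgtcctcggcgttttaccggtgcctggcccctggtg
Ndufaf5: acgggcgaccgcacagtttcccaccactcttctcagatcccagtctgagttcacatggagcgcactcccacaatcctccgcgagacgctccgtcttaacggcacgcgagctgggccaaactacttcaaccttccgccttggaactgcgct
Ndufc2: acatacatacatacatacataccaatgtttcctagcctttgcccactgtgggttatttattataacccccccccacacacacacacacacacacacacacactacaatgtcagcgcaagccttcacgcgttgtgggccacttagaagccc
Uqcr11: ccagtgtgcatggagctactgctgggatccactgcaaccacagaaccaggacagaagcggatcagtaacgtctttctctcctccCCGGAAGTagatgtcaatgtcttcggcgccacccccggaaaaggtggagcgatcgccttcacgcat
Atp5g2: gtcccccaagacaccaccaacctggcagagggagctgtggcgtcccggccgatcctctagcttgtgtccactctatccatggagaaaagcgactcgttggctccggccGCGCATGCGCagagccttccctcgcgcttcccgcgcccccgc

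The fragment totals to which FPKM were scaled, recovered from the values, lay between 14457733 and 18288854. Control 2 stood apart. Its 8 neutrophil markers summed to 9538 FPKM, against 43602 and 45976 in controls 1 and 3 and 39799 to 64830 in the 14 exposed libraries. Markers of cerebellar and hindbrain neurons, a list of 10 genes, summed to 210, 574 and 220 FPKM in controls 1 to 3, to 20.5 to 29.8 for NE and to 21.6 to 77.8 for brimonidine, with brimonidine 5 the highest of the exposed libraries. The sample labels name the cell type as interstitial cells, but the libraries were rich in neutrophil and erythroid transcripts. Of 9 hair cell markers, Slc26a5 (prestin) stayed under 1 FPKM in all 17 libraries, and Strc, Myo15 and Slc17a8 reached 1 FPKM in 1 library each, Tmc1 in 7 and Pou4f3 in 12, while Myo7a, Otof and Ocm were above 1 FPKM in each. In bulk tissue of this kind, fewer cells of a type and less RNA per cell cannot be told apart.

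The 97 genes summed to 4278, 4233 and 4109 FPKM in the 3 control libraries. In the NE group the sum ranged from 3639 (NE 7) to 4659 (NE 6) with a median of 3862, and in the brimonidine group from 3455 (brimonidine 7) to 4267 (brimonidine 3) with a median of 3743. Only NE 6, brimonidine 2 and brimonidine 3 of the 14 exposed libraries exceeded the lowest control, so the groups overlapped. The same 3 libraries had the highest summed neutrophil markers, with 64830, 56652 and 50614 FPKM. They also had the highest mean level of the cytosolic ribosomal proteins, and the part of cell makeup in the sums was not tested. The genes took 0.747% ± 0.027 of the fragment total used to scale FPKM in controls (SD, n = 3). The share was 0.697% ± 0.051 after noise alone (SD, n = 7) and 0.682% ± 0.0468 with brimonidine (SD, n = 7).

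**Figure D1:**
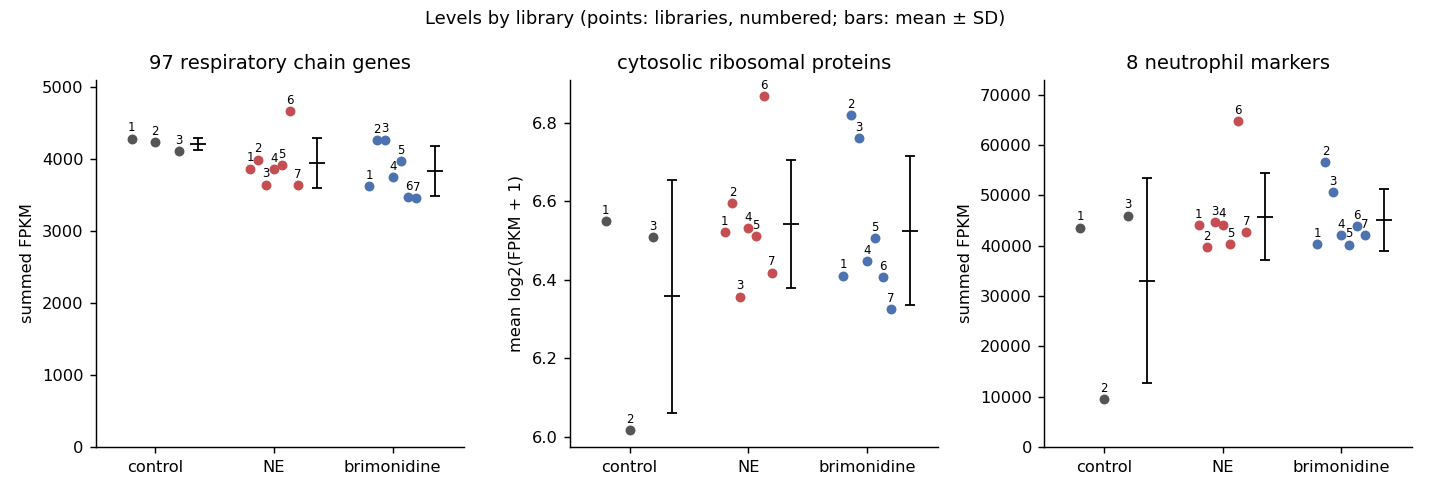
Summed FPKM of the 97 respiratory chain genes, mean log2(FPKM + 1) of cytosolic ribosomal proteins (axis not from 0) and summed FPKM of 8 neutrophil markers, by group. Points are libraries with their numbers and bars give mean ± SD. NE 6 and brimonidine 2 and 3 sit highest among exposed libraries in all 3 panels, and control 2 sits lowest of all in the ribosomal protein and neutrophil panels.

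Levels over the 17 libraries ran from 0.00732 FPKM for Cox8c, a testis isoform of complex IV, to 257 FPKM for Cox8a, its ubiquitous counterpart. The next highest means were 235 FPKM for Cox6a1, another ubiquitous subunit of complex IV, and 210 FPKM for Atp5a1, the alpha subunit of ATP synthase. Median levels per gene were 30.2 FPKM for the core of complex I, 21.0 for its accessory subunits, 47.9 for complex II, 46.1 for complex III, 21.3 for complex IV and 40.1 for ATP synthase. The assembly factors were lower, with medians of 6.83 FPKM for complex I and 1.66 for complex II. FPKM divides by the merged length of all annotated exons, and for 22 of the 97 genes that length is at least 3 times the principal transcript. For Ndufb2 it is 12.4 times (5628 bases) and for Atp5l 11.8 times (6443 bases), so the low levels of these genes (1.39 and 2.77 FPKM) are understated relative to other subunits. The same length lowers their values towards the pseudocount of 1, which shrinks fold changes on the log2(FPKM + 1) scale. Ndufab1, the mitochondrial acyl carrier protein that is also a subunit of complex I, had 2.63 FPKM beside 3.17 FPKM on its processed pseudogene, and its value is uncertain where reads match both copies.

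Spread within groups was small. Among the 94 genes of the set at 1 FPKM or more in at least 3 libraries, the median coefficient of variation was 8.27% for controls, 10.6% for NE and 11.5% for brimonidine. Over all genes kept by the same rule it was 24.9%, 13.2% and 11.7%. The control libraries thus differed less in these genes than in the median gene, although control 2 stood apart. At a mean of 10 FPKM or more (73 of the genes, 5571 genes in all), the medians for the set were 6.77%, 10.2% and 11.2% in the control, NE and brimonidine groups, against 18.0%, 9.31% and 8.26% over all genes.

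The NE and control groups were compared to ask whether these genes differed after noise. Hindbrain neuron markers summed to at least 210 FPKM in each control and to at most 29.8 in each NE library. Noise and this difference in tissue content cannot be told apart here, and neither was tested alone. No gene of the set passed both an adjusted p under 0.05 and a fold change of at least 2 (limma, Benjamini-Hochberg over 15950 genes), a rule that 5.76% of all genes tested passed and 5.49% passed with lower values. At the adjusted p alone, 4 of the 94 genes tested (4.26%) fell and none rose, against 14.1% of all genes in either direction, 12.0% lower and 2.12% higher. Called here means an adjusted p under 0.05 in this fit of the deposited values. All 4 are among the 44 complex I names tested (9.09%), where Ndufb2 and Ndufc2 are accessory subunits and Ndufaf4 and Ndufaf5 are assembly factors. After quantile normalization 10 genes were called lower, of which Cox4i1, Cox6a1, Cox7b, Ndufa4, Uqcr11 and Uqcrh belong to complexes III and IV. The model of all 17 libraries also called Sdhaf3, an assembly factor of complex II. Sdhaf3 had 1.04 to 1.97 FPKM in controls and 0.628 to 1.04 FPKM in the NE libraries. These values lie near the filter of 1 FPKM, which its controls alone were enough to pass. At an unadjusted p under 0.05, 10 genes were lower and 1 higher, against 22.3% and 10.6% of all genes (32.9% together). Without NE 6 these counts were 29 and 1 (31.9% of the set, against 32.9% of all genes), and after quantile normalization they were 35 and 2 (39.4% against 35.4%). With array weights in limma, 4 genes were higher and 27 lower at the adjusted p, where 37.4% of all genes passed.

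The differences were small and mostly of 1 sign. Fold changes are on the log2(FPKM + 1) scale, which understates the change of low genes. The log2 fold change was below 0 in 78 of the 94 genes (83.0%), against 56.1% of all genes, and its median was -0.12, against -0.04 over all genes. It lay within 0.25 of 0 for 83 of the 94 genes. The middle of the set ran from -0.17 to -0.03 between its quartiles, and that of all genes from -0.27 to 0.16. The 95% interval of the difference lay within a 2-fold change for 93 genes, all but Cox6a2, and within a 1.5-fold change for 82. By complex, the median was -0.15 for the core of complex I, -0.13 for its accessory subunits, -0.03 for complex II, -0.11 for complex III, -0.14 for complex IV and -0.08 for ATP synthase. The size depended on the scaling. Scaling by the median ratio moved the median of all genes from -0.04 to 0.06, a shift of over 0.1, and that of the set to -0.01, with 49 genes below 0. The calls were then 1 higher and 3 lower, in place of 0 and 4. The set stayed lower relative to all genes, by 0.08 as deposited, by 0.07 after median ratio scaling and by 0.23 after quantile normalization.

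**Figure D2:**
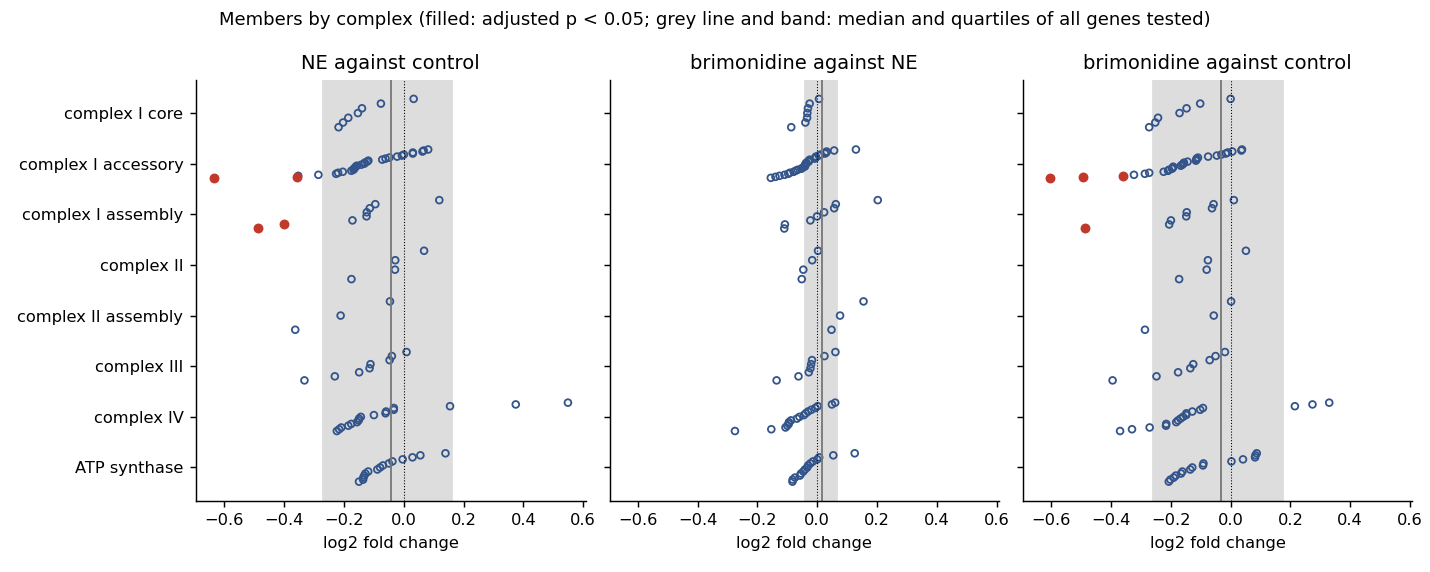
Log2 fold change (log2(FPKM + 1) scale, x axis) of each tested member by complex (y axis) in the 3 comparisons, without Cox7a2l, Atp5s and Atp5sl. Filled points have an adjusted p under 0.05, and the grey line and band give the median and quartiles of all genes tested. Filled points, 4 on the left and 4 on the right, are all accessory subunits or assembly factors of complex I and all below 0. The middle panel has none.

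Ndufb2 (ENSMUSG00000002416, chromosome 6, 39592574 to 39603382), an accessory subunit of the membrane arm, had 1.92, 3.59 and 1.75 FPKM in the control libraries. The NE values ran from 0.942 to 1.33 FPKM with a median of 1.12, all below the controls, and control 2 was the highest of all. The log2 fold change was -0.64 ± 0.15 (SE, adjusted p = 0.0191, limma), and without control 2 it was -0.40 (adjusted p = 0.048). With a pseudocount of 0.1 it was -0.95, and the ratio of the mean FPKM was 0.473. Between 93 and 307 fragments stood behind each value.

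Ndufaf4 (ENSMUSG00000028261, chromosome 4, 24898083 to 24905001), an assembly factor for an early part of complex I, had 5.46, 7.17 and 5.72 FPKM in the control libraries and 4.02 to 4.63 FPKM (median 4.42) in the NE libraries. The groups did not overlap. Their log2 fold change was -0.40 ± 0.09 (SE, adjusted p = 0.0123, limma), and without control 2 it was -0.30 (adjusted p = 0.0374). After quantile normalization it was -0.24 (adjusted p = 0.0584), and with equal totals Ndufaf4 was not called. Ndufaf5 (ENSMUSG00000027384, chromosome 2, 140170649 to 140203689), which hydroxylates the core subunit Ndufs7 during assembly, had 6.03, 8.65 and 5.91 FPKM in the control libraries and 3.97 to 5.17 FPKM (median 4.50) in the NE libraries. Its groups did not overlap either, and control 2 was again the highest. Its log2 fold change was -0.49 ± 0.11 (SE, adjusted p = 0.0181, limma), and without control 2 it was -0.33 with an adjusted p of 0.0576. For Ndufb2, Ndufaf4 and Ndufaf5, control 2, the library with the highest hindbrain neuron markers, held the highest value, and the part of those cells in the differences was not tested.

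Ndufc2 (ENSMUSG00000030647, chromosome 7, 97400003 to 97407802), an accessory subunit of the membrane arm, behaved otherwise. It had 41.5, 40.4 and 41.9 FPKM in the control libraries, which were close together and where control 2 was the lowest. In the NE group it ranged from 28.1 to 41.0 FPKM with a median of 31.9, and only NE 6 reached the control range. This gave a log2 fold change of -0.36 ± 0.11 (SE, adjusted p = 0.0492, limma). In limma without NE 6 it was -0.41 (adjusted p = 0.00584), but without any other NE library Ndufc2 was not called. It was also not called with equal totals, median ratio scaling (adjusted p = 0.236), no filter or voom. Leaving out control 1, 2 or 3 gave -0.35, -0.37 and -0.345 with adjusted p of 0.0699, 0.108 and 0.101. Without control 2, the calls among the 94 genes were Ndufb2 and Ndufaf4 lower and Cox6a2 higher.

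Ndufa5, Uqcr11 and Ndufs3 followed in order of p without passing the adjusted threshold, apart from Cox6a2. Ndufa5, an accessory subunit of the peripheral arm, had 19, 24.3 and 20.7 FPKM in the control libraries and 12.8 to 20.5 FPKM (median 16.2) in the NE libraries, with NE 6 the highest. Its log2 fold change was -0.35 ± 0.13 (SE, adjusted p = 0.0943, limma). Uqcr11, a small subunit of complex III, had 47.4, 45.2 and 44.5 FPKM in the control libraries and 27.6 to 42.0 FPKM (median 39.1) in the NE libraries. All NE values lay below the controls, and the log2 fold change was -0.33 ± 0.13 (SE, adjusted p = 0.102, limma), with an adjusted p of 0.0371 after quantile normalization. Ndufs3, a core subunit of the peripheral arm, had a log2 fold change of -0.22 ± 0.08 (SE, adjusted p = 0.103, limma). Non-overlapping groups were found for 4 of the 94 genes, all lower in the NE group, against 15.0% of all genes lower and 3.24% higher.

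**Figure D3:**
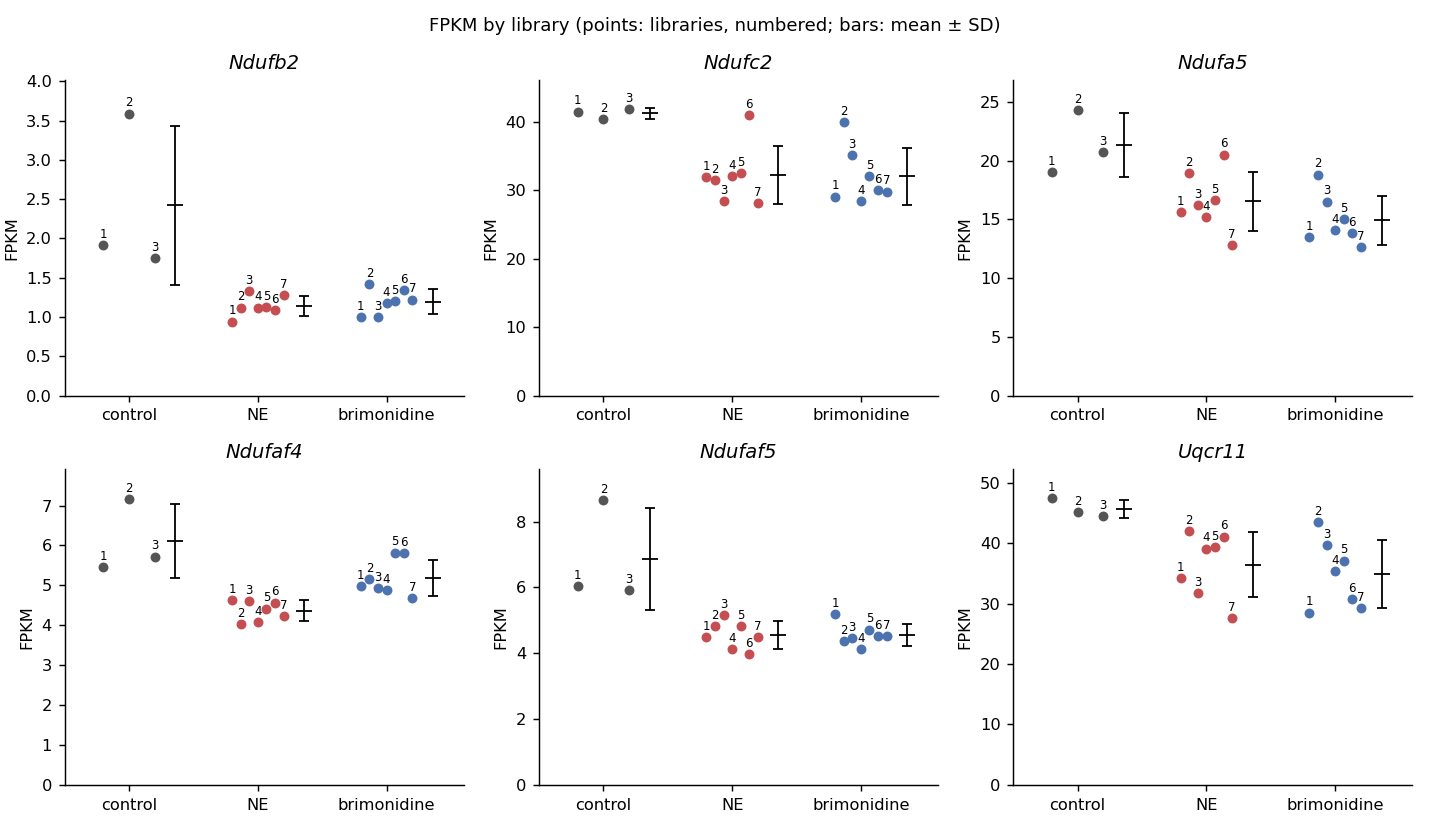
FPKM (y axis, from 0) of Ndufb2, Ndufc2, Ndufa5, Ndufaf4, Ndufaf5 and Uqcr11 by group. Points are libraries with their numbers and bars give mean ± SD. Control 2 is the highest point for Ndufb2, Ndufa5, Ndufaf4 and Ndufaf5, NE 6 is the highest NE point for Ndufc2 and Ndufa5, and all brimonidine points of Ndufaf4 lie above the NE points.

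The core subunits differed little between the NE and control groups. Of the 7 core subunits of complex I, which carry the flavin and the iron-sulfur clusters, 6 had a log2 fold change below 0 and none was called in this fit, while Ndufs3 was called with all 17 libraries in 1 model and Ndufv2 with array weights. Ndufv1, which binds NADH, had 34.1, 41.5 and 28.4 FPKM in the control libraries and 27.6 to 31.4 FPKM (median 30.6) in the NE libraries, a log2 fold change of -0.20 ± 0.10 (SE, adjusted p = 0.20, limma). Control 3 lay within the NE range. Ndufs8 was the exception in sign, at 0.03, and values below 0 included -0.15 for Ndufs1, -0.19 for Ndufs7 and -0.14 for Ndufv2.

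In complex II, which also works in the tricarboxylic acid cycle, the flavoprotein Sdha had 64.1, 80.7 and 55.6 FPKM in the control libraries and 55.9 to 61.5 FPKM (median 57.7) in the NE libraries. Control 3 was below every NE value and control 2 was above the others, and the log2 fold change was -0.18 ± 0.10 (SE, adjusted p = 0.262, limma). The iron-sulfur subunit Sdhb and the membrane anchors Sdhc and Sdhd had log2 fold changes of -0.03, -0.03 and 0.07. For the large subunits of complex III these were 0.01 for Uqcrc1 and -0.11 for Uqcrc2, and -0.05 for the Rieske protein Uqcrfs1. In ATP synthase, the catalytic beta subunit Atp5b had 207, 235 and 194 FPKM in the control libraries and 182 to 209 FPKM (median 188) in the NE libraries, with a log2 fold change of -0.15 ± 0.10 (SE, adjusted p = 0.313, limma). Its groups overlapped, and Atp5a1 (-0.07) and the gamma subunit Atp5c1 (-0.0038) differed by less. In complex IV, Cox4i1, Cox5a and Cox5b were at -0.19, -0.15 and -0.03.

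Several subunits of complex IV have tissue isoforms, and the isoforms of striated muscle gave the largest positive values of the set between the NE and control groups. Cox6a2 had 12.3, 22.9 and 13.6 FPKM in the control libraries and 18.2 to 34.7 FPKM (median 22.4) in the NE libraries. Control 2 lay within the NE range, and the other controls lay below it. The log2 fold change was 0.55 ± 0.21 (SE, adjusted p = 0.099, limma), and without control 2 it was 0.81 (adjusted p = 0.0296). Without control 1 or 3 it was 0.39 and 0.45, with adjusted p of 0.233 and 0.217 (limma). Cox8b had 7.69, 9.33 and 2.76 FPKM in the control libraries and 5.28 to 10.7 FPKM (median 8.20) in the NE libraries. Its difference of 0.37 ± 0.28 (SE, adjusted p = 0.369, limma) rested on control 3, without which it was -0.07. Cox7a1, the other muscle isoform, was at -0.03 ± 0.20 (SE).

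The ubiquitous partners Cox6a1, Cox8a and Cox7a2 had log2 fold changes of -0.18, -0.10 and -0.06, none called in this fit. Cox6a1 was called after quantile normalization and Cox7a2 with array weights. Cox6a2 made up 4.26%, 7.91% and 5.10% of the summed FPKM of Cox6a1 and Cox6a2 in the control libraries and 7.09% to 13.5% (median 8.64%) in the NE libraries. The difference was 3.46 percentage points (exact two-sided permutation p = 0.025, adjusted p = 0.135 over 27 tests of isoform shares). Skeletal muscle markers moved with it. The 10 markers summed to 207, 556 and 246 FPKM in the control libraries, to 403 to 974 FPKM in the NE libraries and to 320 to 839 FPKM with brimonidine. NE 4 and brimonidine 5 were the highest of their groups in both the markers and the Cox6a2 share. Of the list, 9 markers were above 1 FPKM in all 17 libraries and Tnnc2 was below 1 FPKM in each, and the part of muscle in the Cox6a2 difference was not tested.

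Cox4i2, an isoform known from lung, had 2.63, 3.09 and 4.26 FPKM in the control libraries and 1.69 to 4.23 FPKM (median 2.64) in the NE libraries, and Ndufa4l2 had 1.83, 2.89 and 2.21 FPKM and 1.25 to 2.26 FPKM (median 1.93). Their log2 fold changes were -0.22 ± 0.21 and -0.22 ± 0.15 (SE), within the overlap of the groups. Cox6b2, a testis isoform, was at 0.15 ± 0.09 (SE), and its share of Cox6b1 plus Cox6b2 was 5.48% ± 0.682 for controls (SD, n = 3) and 6.41% ± 0.646 for NE (SD, n = 7). Ndufaf8, an assembly factor of complex I, was at 0.12, also uncalled. Cox7b2 was at 0 in 16 of the 17 libraries and had 0.486 FPKM, 4 fragments, in control 2. Cox8c had 1 fragment, in NE 1, and Sdhaf1, an assembly factor of complex II, stayed between 0.025 and 0.321 FPKM. These 3 genes were not tested.

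Subunit c of ATP synthase is encoded by Atp5g1, Atp5g2 and Atp5g3, which make the same mature protein. Atp5g2 held 35.1%, 31.7% and 35.0% of their summed FPKM in the control libraries, 35.8% to 40.5% (median 39.1%) in the NE libraries and 36.6% to 40.7% (median 37.9%) in the brimonidine libraries. Every exposed library lay above every control, and control 2 was the lowest. The difference from control was 4.50 percentage points for NE and 4.18 for brimonidine, both with an exact two-sided permutation p of 0.00833, the smallest that 7 against 3 libraries can give, and an adjusted p of 0.113. Both comparisons share the 3 controls. The share of Atp5g3 was 53.8% ± 1.67 for controls (SD, n = 3) and 50.2% ± 1.84 for NE (SD, n = 7), and that of Atp5g1 was 12.3% ± 0.687 and 11.4% ± 0.465. None of the 3 genes was called on its own level, with log2 fold changes of -0.13 for Atp5g1, 0.14 for Atp5g2 and -0.14 for Atp5g3 between the NE and control groups. Merged exon lengths exceed the principal transcript for all 3, so the shares describe FPKM and not molecules.

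**Figure D4:**
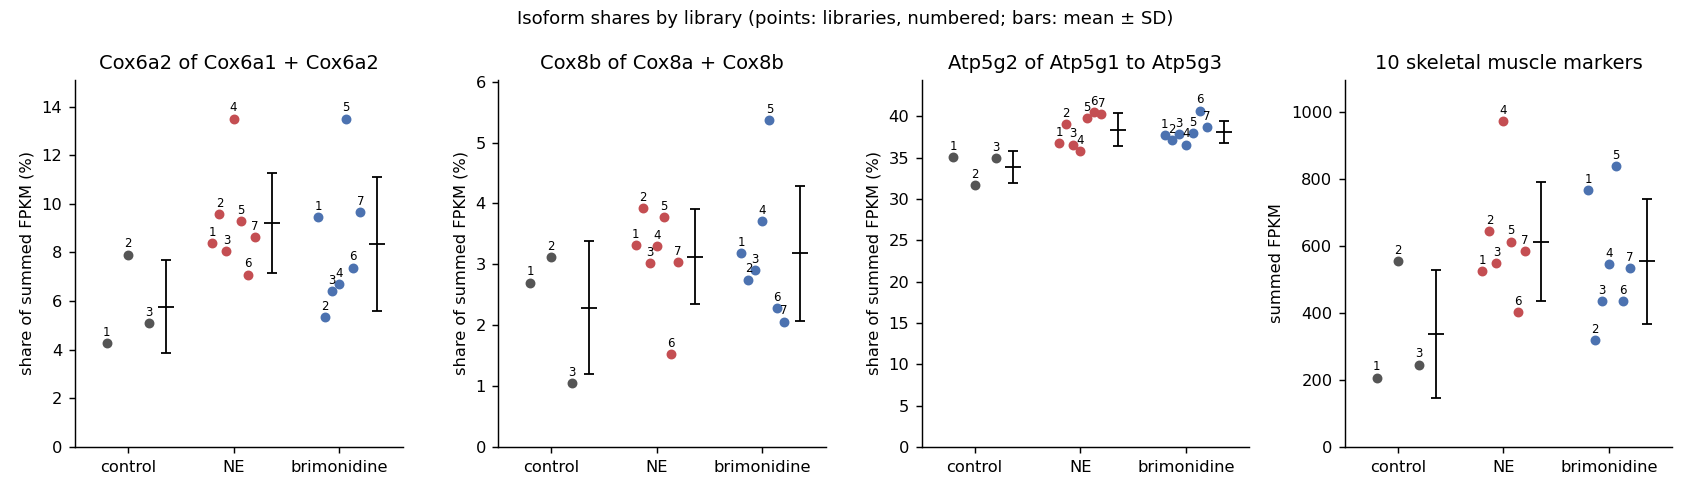
Share (%) of Cox6a2 in Cox6a1 plus Cox6a2, of Cox8b in Cox8a plus Cox8b and of Atp5g2 in the 3 subunit c genes, and summed FPKM of 10 skeletal muscle markers, by group, all axes from 0. Points are libraries with their numbers and bars give mean ± SD. NE 4 and brimonidine 5 are highest in their groups in the Cox6a2 and muscle panels, and all exposed libraries lie above the controls in the Atp5g2 panel.

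The brimonidine and NE groups were compared to ask what the drug changed after the same exposure. None of the 94 genes passed an adjusted p under 0.05 (limma), which 0.00637% of the 15707 genes tested did (1 gene). At an unadjusted p under 0.05, 2 genes were higher and none was lower in the brimonidine group, against 3.30% and 2.46% of all genes (5.77% together). Without brimonidine 2, 1 was higher and 3 were lower. With voom on recovered fragments 3 were higher and none was lower. The median log2 fold change was -0.03, against 0.01 over all genes, and 67 of the 94 genes were below 0, against 42.3% of all genes. This rested in part on NE 6, without which the median was -0.0008 and 49 genes were below 0, and equal totals gave -0.0078 and 55 genes. All values lay between -0.28 (Cox6a2) and 0.20 (Ndufaf4), and the 95% interval lay within a 2-fold change for all 94 genes and within a 1.5-fold change for 93.

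Ndufaf4 was 1 of the 2 genes. Its brimonidine values ran from 4.69 to 5.82 FPKM with a median of 4.98, all above the highest NE value of 4.63, and they overlapped the control range of 5.46 to 7.17 FPKM. The log2 fold change from NE was 0.20 ± 0.05 (SE, unadjusted p = 0.00134, adjusted p = 0.485, limma). Non-overlap in this direction was found for 1 of the 94 genes and for 0.102% of all genes, and in the other direction for none of the 94 and 0.0382%. The NE values of Ndufaf4 lay below all values of both other groups. From control, the brimonidine group differed by -0.20 ± 0.09 (SE, adjusted p = 0.153, limma), and both differences for Ndufaf4 use the same 7 brimonidine libraries.

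Atp5l, the g subunit of ATP synthase, was the other gene, with 2.01 to 2.81 FPKM (median 2.73) in the NE libraries and 2.71 to 3.14 FPKM (median 3.04) in the brimonidine libraries. The groups overlapped, NE 7 was the lowest, and the log2 fold change was 0.13 ± 0.06 (SE, unadjusted p = 0.047, adjusted p = 0.865, limma). Ndufab1 followed at 0.13 ± 0.06 (SE), Ndufaf7, an assembly factor of complex I, at 0.06 ± 0.04, and Sdhaf4, an assembly factor of complex II, at 0.16 ± 0.13. The lower values with the smallest p belonged to Ndufa12 (-0.13 ± 0.07), Cox6a2 (-0.28 ± 0.17), Ndufa4l2 (-0.15 ± 0.10), the assembly factor Ndufaf3 (-0.11 ± 0.08) and Ndufa2 (-0.16 ± 0.11), none called. For Ndufa12 the brimonidine values ran from 18.8 to 23.4 FPKM and the NE values from 22.1 to 29.2 FPKM, with NE 6 the highest. The core subunits named above lay between -0.09 (Ndufs7 and Cox5b) and 0.05 (Cox5a) in this comparison.

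The brimonidine and control groups were compared with the same 3 controls. Again 4 of the 94 genes (4.26%) passed an adjusted p under 0.05, all lower, against 15.8% of all 15947 genes in either direction, 12.3% lower and 3.47% higher. None passed with a fold change of at least 2, against 5.73% of all genes, 5.56% with lower values. The 4 were Ndufb2, Ndufc2, Ndufaf5 and Ndufa5, 9.09% of the 44 complex I names tested. Quantile normalization also called genes of other complexes, with Cox4i1, Cox6a1, Cox6b1 and Uqcr11 lower and Atp5l higher. At an unadjusted p under 0.05, 16 genes were lower and none higher, against 22.0% and 13.6% of all genes (35.6% together). The median log2 fold change was -0.15, against -0.03 over all genes, and 79 genes were below 0 (84.0%), against 54.2%. Scaling by the median ratio brought the median of the set to -0.05, against 0.06 over all genes, with 60 genes below 0, against 42.9% of all genes.

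Ndufa5 had 12.6 to 18.8 FPKM (median 14.1) in the brimonidine libraries, all below the controls. This gave a log2 fold change of -0.49 ± 0.12 (SE, adjusted p = 0.0202, limma), and -0.40 without control 2 (adjusted p = 0.0782). Ndufb2 ranged from 0.994 to 1.42 FPKM (median 1.20) and Ndufaf5 from 4.13 to 5.18 FPKM (median 4.51), again with no overlap with the controls. Their log2 fold changes were -0.60 ± 0.15 (adjusted p = 0.0247) and -0.49 ± 0.11 (adjusted p = 0.0124, limma), and without control 2 they were -0.37 (adjusted p = 0.0618) and -0.33 (adjusted p = 0.0207). Ndufc2 ranged from 28.4 to 40.0 FPKM (median 30.0), with brimonidine 2 just below the lowest control. Its log2 fold change was -0.36 ± 0.11 (SE, adjusted p = 0.042, limma), and without control 1, 2 or 3 the adjusted p was 0.0577, 0.0788 and 0.0847. Ndufc2 was also not called without brimonidine 1, 4, 5, 6 or 7, and stayed called without brimonidine 2 or 3. Scaling also ended calls. Ndufc2 was at -0.26 after median ratio scaling (adjusted p = 0.147, limma) and was not called with equal totals or no filter, Ndufaf5 was not called with equal totals, and Ndufb2 was at -0.38 after quantile normalization (adjusted p = 0.0608, limma). Ndufs3 (-0.25, adjusted p = 0.0595), Uqcr11 (-0.39, adjusted p = 0.0632) and Ndufa12 (-0.29, adjusted p = 0.0636) came next without passing (limma). The highest values, none called in this fit, were 0.33 for Cox8b, 0.27 for Cox6a2, 0.22 for Cox6b2, 0.09 for Atp5l and 0.08 for Atp5g2. Groups that did not overlap were found for 9 of the 94 genes, all lower, against 14.3% of all genes lower and 5.07% higher. Without control 2, 1 gene, Ndufaf5, was called.

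Libraries of 1 group differed from each other across the whole set. NE 6 held the highest NE value in 75 of 94 genes, against 22.2% of all genes kept. NE 7 and NE 3 held the lowest in 34 and 32, against 8.46% and 10.6% of all genes. In the brimonidine group, libraries 2 and 3 held the highest value in 44 and 28 genes, against 16.3% and 14.9% of all genes, and libraries 7 and 6 the lowest in 30 and 29, against 13.6% for each. Deviations from the group mean depended on gene length. For genes of the set at 10 FPKM or more, the median deviation of NE 6 on the log2(FPKM + 1) scale was 0.30 for merged exons under 1000 bases (19 genes), 0.28 from 1000 up to 2000 bases (28 genes) and 0.18 for 2000 bases or more (26 genes). Other protein-coding genes in the same classes deviated by 0.29, 0.23 and 0.00. For brimonidine 2 the set deviated by 0.26, 0.20 and 0.035 and the other genes by 0.22, 0.09 and -0.02. At this level short genes of both kinds were high in these libraries. The long genes of the set were above other long genes in NE 6, in brimonidine 3 (0.11 against 0.01) and in brimonidine 5 (0.10 against 0.00). All kept genes under 1000 bases, of any biotype and level, went otherwise. Their mean log2(FPKM + 1) in NE 6 (2.17) and brimonidine 3 (2.20) was the lowest of the group, while brimonidine 2 (2.38) was the highest of its group.

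Between the NE and control groups, the median of the set had the same sign in each length class. The median log2 fold change of the set was -0.10, -0.10 and -0.12 in the 3 length classes, with 14 of 19, 23 of 28 and 22 of 26 genes below 0. Other protein-coding genes of at least 10 FPKM had medians of 0.11, 0.08 and 0.07 in the same classes. Between the brimonidine and control groups the set was at -0.12, -0.16 and -0.13, and the other genes were at 0.07, 0.06 and 0.09.

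**Figure D5:**
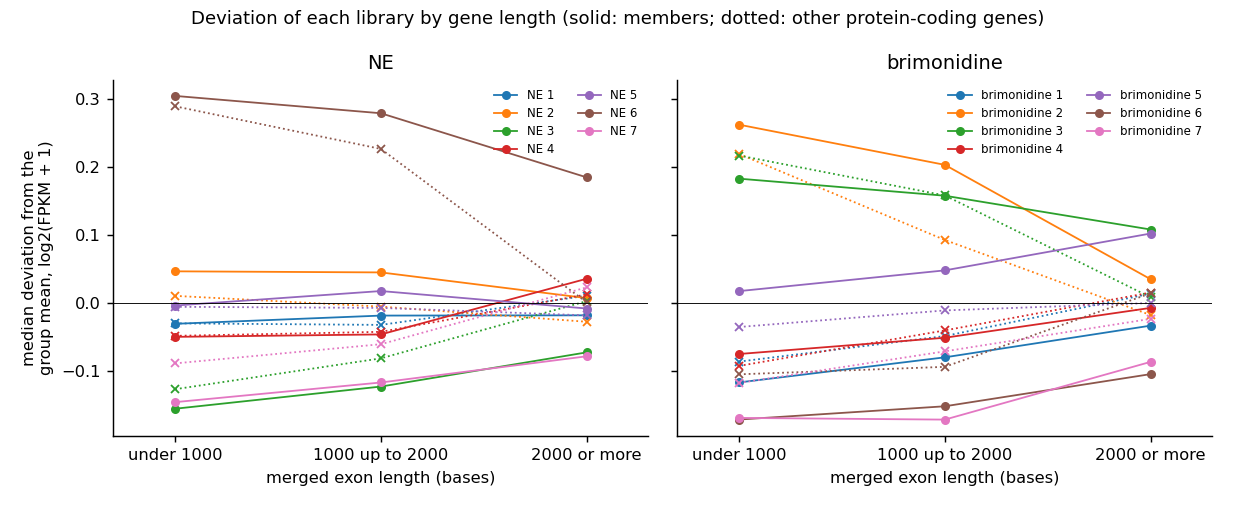
Median deviation of each exposed library from its group mean on the log2(FPKM + 1) scale (y axis) in 3 classes of merged exon length (x axis, bases), for genes with a mean of 10 FPKM or more. Solid lines with circles are the respiratory chain genes and dotted lines with crosses are other protein-coding genes. NE 6 and brimonidine 2 and 3 lie above 0 in short genes of both kinds, and other genes converge to 0 at 2000 bases or more. Over all kept genes under 1000 bases, not shown, NE 6 and brimonidine 3 were instead the lowest of their groups.

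Genes that serve the chain were counted in the same fits. Of the 13 subunits encoded in mitochondrial DNA, 12 were tested between the NE and control groups, none was called, 11 were below 0 and the median log2 fold change was -0.19. Control 2 had the highest mean level of these genes, 8.22 on the log2(FPKM + 1) scale, against 7.76 and 7.71 in controls 1 and 3 and 7.64 to 7.81 in the NE libraries. At the same rule 12.0% of all genes were lower, a share against which the following small counts are to be read. Over all lists of this paragraph and the next, 13 of the 266 genes tested (4.89%) were called lower and 1 (0.376%) higher. The shares of all genes were 12.0% and 2.12%. Assembly factors outside the name rule were called lower in 3 of 16 for complex IV (Coa6 at -0.34, Cox14 at -0.37 and Cox19 at -0.28), 1 of 4 for ATP synthase (Tmem70 at -0.31), and none of 8 for complex I or of 5 for complex III. Among 12 genes of ubiquinone synthesis and cytochrome c, Coq3 (-0.31) and Coq5 (-0.34), methyltransferases of ubiquinone synthesis, fell. Among 13 genes of the tricarboxylic acid cycle, Idh3a (-0.31) and Idh3b (-0.41), subunits of the NAD-dependent isocitrate dehydrogenase, fell.

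Of 14 regulators of mitochondrial gene expression, Ppargc1b, a coactivator of the PGC-1 family, had 1.72, 4.80 and 2.17 FPKM in the control libraries and fell to a mean of 0.83 FPKM in the NE group (log2 fold change -1.02 ± 0.22, SE, adjusted p = 0.0105, limma). Control 2 was the highest, and Nrf1, Gabpa and Ppargc1a were not called. In the brimonidine group it was at 1.04 FPKM (-0.86, adjusted p = 0.0216, limma), and Yy1 was higher than in the control group by 0.20 (adjusted p = 0.0482). Of 16 glycolytic genes tested, Aldoc, an aldolase of brain, fell by 3.67 and Ldhb by 0.78 on the log2 scale in the NE group, and the hexokinase Hk2 rose by 0.53. The hindbrain neuron markers given above were lower in the same comparison, and their part in these differences was not tested. Cytosolic ribosomal proteins (89 tested) had a median of 0.19 with none called, and mitochondrial ribosomal proteins (77 tested) had a median of -0.04 with 2 lower, Mrpl49 and Mrpl50. Between the brimonidine and control groups, 12 of the 266 genes tested in these lists were called (4.51%), against 15.8% of all genes. Among them Uqcc1 (-0.28), an assembly factor of complex III, and Mrpl38 (-0.32) were lower and Rpl23a (0.45) was higher, while Idh3b, Coa6, Cox19, Coq5, Mrpl49 and Mrpl50 were not called. Between the brimonidine and NE groups no gene of these lists was called by limma at an adjusted p under 0.05, and 3 of 267 (1.12%) were higher and 1 (0.375%) lower at an unadjusted p under 0.05, against 3.30% and 2.46% of all genes.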

How the data were processed

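RNA from 17 mouse cochlear libraries (TRIzol, stranded TruSeq kit, Illumina NovaSeq) was measured as FPKM per gene. The authors made the deposited FPKM values from trimmed, mapped and counted reads, and the submitters' processing notes name Trimmomatic, HISAT2, HTSeq, Cufflinks and the mm10 build. Versions, the annotation release and the strand setting of counting are not given in the sources used here. Groups came from the sample labels. The members and the gene lists were chosen with earlier results of these data known.

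Values were tested as log2(FPKM + 1) with limma 3.58.1 (R 4.3.3) on the libraries of the 2 groups compared, for genes at 1 FPKM or more in at least 3 of them. P-values were Benjamini-Hochberg adjusted over all genes tested, and calls used 0.05. The study's count-based test was not used, because FPKM are not counts. Isoform shares were tested by exact two-sided permutation (scipy 1.17.1, Python 3.11.15). The fits were run on simulated fragments with the same small spread for every gene and no difference in tissue content. That run does not cover the spread between these controls.

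FPKM steps gave whole fragments (within 0.02) for 91.0% to 91.6% of values by library. The totals recovered as the scaling of FPKM were 14457733 to 18288854 fragments. Fragments recovered over the genes summed to more, 15194171 to 19247648. Voom on the recovered fragments called 14.4%, 0.00637% and 16.6% of genes for NE against control, brimonidine against NE and brimonidine against control. The genes named were core subunits, tissue isoforms, the 3 highest and 3 lowest genes by level, untested genes, and the 5 with the smallest p in each direction. A gene that this rule names is not reported here. Uqcr11 as a sequence example, and the cytosolic ribosomal list without Rps6k and Rps19bp genes, were chosen after values were seen. Alternatives were the pseudocount, the filter, scaling, model, weights, replicate block, voom and leaving out libraries.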

Additional observations from a re-analysis of the deposited data

Results flagged for a closer look

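In 104 groups of 7 libraries tested, 14 times a library lay further from the nearest other than Dixon's 95% limit allows. Chance gives about 1 in 20 in a single group. The groups share the same libraries and are not independent, so the 14 cannot be judged against that rate. NE 6 was the highest in 10 of the 14. These were Cox8a at 341 FPKM (next 262), Cox6b1 at 137 (next 104), Atp5c1 at 115 (next 93.5), Uqcrc1 at 55.8 (next 47.5), Ndufv2 at 51 (next 42.6), Ndufc2 at 41 (next 32.5), Sdhc at 32.4 (next 27.8), Ndufa12 at 29.2 (next 23.6) and Ndufaf8 at 23.7 (next 17). The last was the summed level of the 97 genes, at 4659 FPKM (next 3989). NE 6 also had the highest summed neutrophil markers of all libraries, and their part in these values was not tested.

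NE 7 was lowest for Atp5l at 2.01 FPKM (next 2.62). Brimonidine 5 was highest for Cox6a2 at 34.5 FPKM (next 21.1), and its skeletal muscle markers were the highest of its group. Brimonidine 2 was highest for Sdhaf4 at 3.51 FPKM (next 2.55). Cox8c was at 0.124 FPKM in NE 1, on 1 fragment, and at 0 in the other NE libraries.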

How the results depend on the processing

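With 3 controls, calls against control were few and moved with the setting, while the pseudocount of 0.1 and the absence of a filter kept the counts within 1.5 times. The cause of the changes was not tested. Against the 4 NE and control calls at an adjusted p under 0.05, equal totals gave 2, quantile normalization 10, all 17 libraries in 1 model 8 and array weights 31. The 11 at an unadjusted p became 6 with median ratio scaling, 37 with quantile normalization and 42 with array weights. The median of the genes was -0.0098 after median ratio scaling. A fold change of at least 2 was passed by 1 gene with array weights (Cox8b) and by 1 with voom (Ndufb2). Leaving out 1 library gave 3 (without each of the others) to 6 (without NE 6) adjusted calls, 7 (without control 2) to 30 (without NE 6) unadjusted ones and medians of -0.15 to -0.10.

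For brimonidine against control, the 4 adjusted calls became 2 with equal totals, 12 with quantile normalization, 9 in 1 model and 33 with array weights, where 1 gene passed the 2-fold limit. The 16 unadjusted ones became 9, 34, 23 and 43, and 5 with median ratio scaling, whose median was -0.0462. Leaving out libraries gave 1 (without control 2, also with brimonidine 5 left out, a setting chosen after seeing the data) to 6 (without control 1 or brimonidine 2) adjusted and 9 (without control 2) to 28 (without brimonidine 2) unadjusted calls. For brimonidine against NE, no setting gave an adjusted call. The 2 unadjusted ones became 1 with median ratio scaling, quantile normalization, 1 model, array weights, the robust step and the replicate block, and 1 (without NE 2) to 4 (without brimonidine 2) when a library was left out.

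Replicate numbers did not pair the libraries, since the correlations of same-numbered deviations ran from -0.221 to 0.0832. The replicate block, on the 3 numbers shared with the controls, left 0 adjusted calls in both comparisons with control and 3 and 1 unadjusted ones. The same libraries without the block also gave 0 adjusted calls.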
